A study of Mus musculus with 8 samples.

Results

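The genes described here encode 8 protein methyltransferases that act on proteins of muscle or are abundant in it. They are Mettl21c, Mettl21e, Mettl21a and Vcpkmt of the METTL21 lysine methyltransferases, Smyd1 and Smyd2 of the SMYD family, and Setd3 and Setd7 of the SET domain family. All 8 were found by gene symbol among the 23930 genes of the table. The set was chosen by enzyme family and from the KO against WT contrast of these same libraries, in which Mettl21c was already known to be among the lowest genes in KO. That contrast is therefore given for the 8 genes as a description, with no test, and nothing is concluded from the number of them that differ.

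Protein methyltransferases transfer a methyl group from S-adenosylmethionine to a lysine, arginine or histidine of another protein. METTL21 enzymes modify lysines of molecular chaperones: METTL21A acts on heat shock proteins of the Hsp70 class, and VCPKMT on the segregase VCP, which pulls ubiquitinated proteins out of complexes. METTL21C and METTL21E are the members of the family found mainly in skeletal muscle. SMYD1 and SMYD2 serve the assembly and upkeep of the sarcomere together with chaperones, SETD3 methylates a histidine of actin, and SETD7 methylates a histone and several transcription factors.

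RNA came from whole tibialis anterior, a muscle of the shin made mostly of fast fibres, and was read as 1 amplicon per gene on the Ion AmpliSeq Transcriptome Mouse panel. The 4 KO libraries came from mice with an inducible HSA-Cre and a loxP-flanked Sdhc, which encodes a membrane anchor of succinate dehydrogenase. The 4 WT libraries came from littermates with the same Cre and no floxed allele. Both groups received tamoxifen at 12 weeks of age and were sampled 20 weeks later, so Cre and tamoxifen are common to both. The Cre is driven by the skeletal actin promoter and acts in muscle fibres, so that other cells of the tissue keep Sdhc. The labels name C57/B6 mice, the genotype field ends in C57BL/7 or C57BL/8 for the KO libraries, and no label says that each library is a separate animal. Unless each is, the spread behind a p-value here may be partly technical.

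Read totals lay between 4.77 and 7.28 M per library (M, 1000000), and 3 reads, used as the floor, corresponded to 0.412 to 0.628 RPM (reads per 1000000 reads of the library). Sdhc stood between 574 and 795 RPM in WT and between 14.5 and 49.4 RPM in KO, in accord with the labels. The fibre markers Acta1, Ckm, Myh4, Myh1, Mylpf and Tnnt3 were all abundant, with sums of 96629 to 144071 RPM in WT and 76747 to 118318 RPM in KO. Each of these markers had a lower mean in KO, from 69.1% of WT for Acta1 to 94% for Mylpf, with overlapping groups. WT 1 and KO 4 stood apart from the other libraries, as Xist, the RNA of the inactive X chromosome, reached 77.3 and 98.9 RPM in them and at most 0.334 RPM elsewhere. No label used here states sex. For the 8 methyltransferases, and for list and marker genes called without these 2 libraries, values in the other 6 are also given below.

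Mettl21c differed most among the 8 genes. The WT libraries held 25.8, 133, 97.4 and 120.2 RPM (WT 1 to WT 4), and the KO libraries held 18.2, 24.7, 24.1 and 12.1 RPM (KO 1 to KO 4). The groups did not overlap, but WT 1 lay only just above KO 2, and their intervals for counting error overlapped (exact 95% binomial interval 22.2 to 29.8 RPM in WT 1 and 20.5 to 29.6 RPM in KO 2). These values rest on 88 to 799 reads, and amplicon reads carry no molecular identifiers, so the intervals cover counting error only. The mean was 19.8 ± 5.9 RPM in KO and 94.2 ± 48 RPM in WT (SD, n = 4 each), so that KO stood at 21% of WT, 4.76-fold lower. Of the 11087 genes that reached 1 RPM in 4 or more libraries, 2 had a lower log2 difference.

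In each group the library with Xist held the lowest level of Mettl21c, 25.8 RPM in WT and 12.1 RPM in KO. Without WT 1 and KO 4 the levels were 117 ± 18.2 RPM in WT and 22.3 ± 3.57 RPM in KO (n = 3 each), and the gap between the groups ran from 24.7 to 97.4 RPM. The spread within WT thus came mainly from 1 library, with a coefficient of variation of 50.9% in WT and 29.8% in KO over all libraries. The part that sex or another property of these 2 libraries plays in the level of Mettl21c was not tested.

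**Figure D1:**
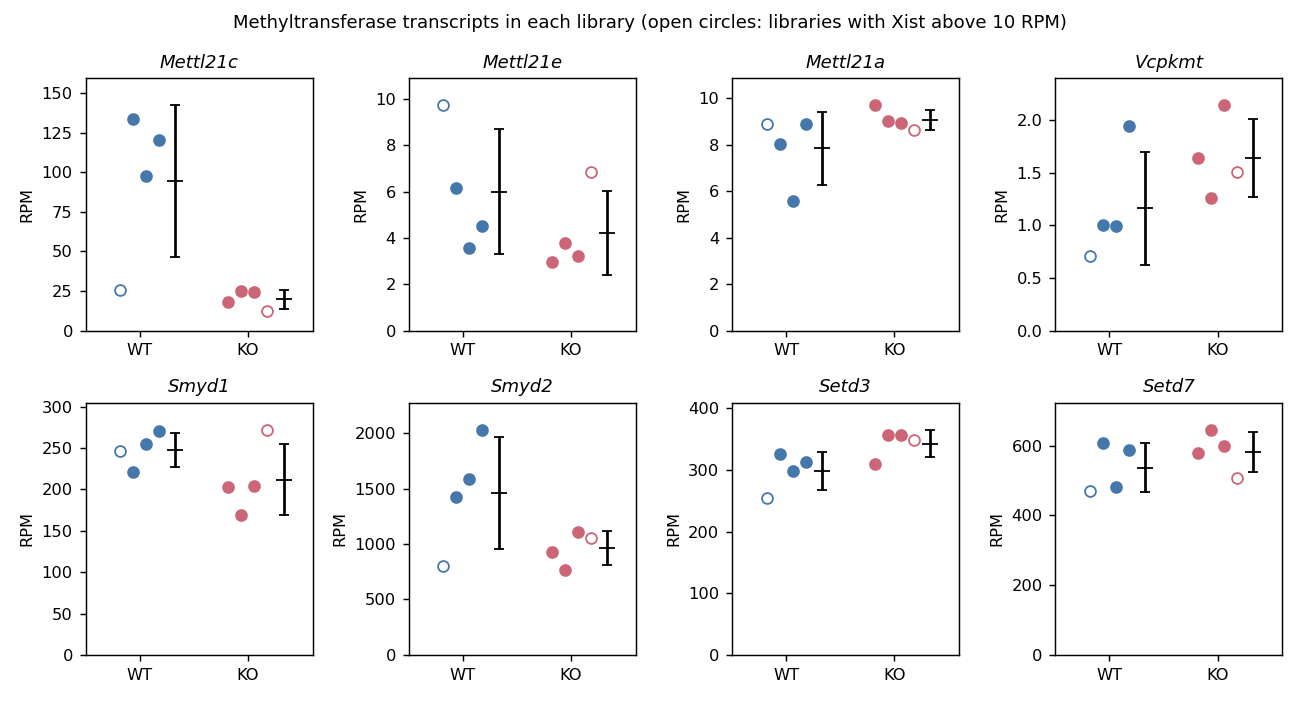
Level of each of the 8 methyltransferase transcripts in RPM (vertical axes, linear from 0) in the 4 WT and 4 KO libraries, placed from replicate 1 to 4 within each group, with mean ± SD as bars and open circles for the 2 libraries with Xist above 10 RPM. Mettl21c runs from 12.1 to 24.7 RPM in KO and from 25.8 to 133 RPM in WT, and it is the 1 gene whose groups do not overlap.

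Differences below are on the scale of log2(RPM + 1), KO minus WT, with the SE of a limma model fitted to all 11087 genes. On the deposited scale KO exceeded WT by 0.13 in the median gene, and by 0.005 after TMM scaling (trimmed mean of M values), so each log2 difference is given relative to the median gene unless stated otherwise. The SE does not include the error of that median. The limma p-values were taken without this centring, so they test the difference with the 0.13 included. This tends to make them smaller for genes higher in KO and larger for genes lower in KO. In edgeR, which used TMM factors, the median gene lay at 0.008. Mettl21c lay at -2.14 (SE 0.38) and at -2.46 (SE 0.17) in the 6 libraries without Xist. In that model 0.803% of all genes passed an adjusted p of 0.05 (89 of 11087), and in the 6 libraries 3.63% did (403). No call is given for the 8 genes themselves.

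Of the 8 genes, 1 showed no overlap between the groups, where 9.1% of all genes tested did. The median log2 difference over the 8 was -0.19, where that of all genes is 0 by construction, with 5 below 0 and 3 above. All 8 met the minimum level of the model, Vcpkmt through all 4 KO libraries and 2 of the WT libraries.

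Mettl21e is the close relative of Mettl21c in muscle and lies near it on chromosome 1. Its levels were low, at 9.73, 6.18, 3.56 and 4.53 RPM in WT 1 to WT 4 and 2.96, 3.77, 3.21 and 6.87 RPM in KO 1 to KO 4. The groups overlapped, and the highest level in each group was in the library with Xist, the reverse of the order seen for Mettl21c. The log2 difference was -0.54 (SE 0.27), and -0.52 (SE 0.24) in the 6 libraries without Xist, and the mean was 6 ± 2.71 RPM in WT and 4.2 ± 1.81 RPM in KO. These values rest on 18 to 69 reads per library.

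The other METTL21 genes did not stand lower in KO. Mettl21a, which encodes the methyltransferase of Hsp70 chaperones, held 8.88, 8.01, 5.56 and 8.91 RPM in WT 1 to WT 4 and 9.69, 9.01, 8.92 and 8.65 RPM in KO 1 to KO 4. The groups overlapped, with WT 3 below all other libraries, and the log2 difference was 0.08 (SE 0.18), or 0.16 (SE 0.21) in the 6 libraries. Vcpkmt, which encodes the methyltransferase of VCP, was near the limit of detection, with 5 to 12 reads per library. It lay between 0.705 and 1.94 RPM in WT and between 1.26 and 2.14 RPM in KO (log2 difference 0.18, SE 0.23, and 0.10, SE 0.27, in the 6 libraries). In WT 1 the exact 95% interval reached from 0.229 to 1.65 RPM, so that a difference of the size seen could not be resolved at this depth.

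On the GENCODE M21 annotation of GRCm38, Mettl21c (ENSMUSG00000047343.4, protein coding) spans chromosome 1 from 44009408 to 44020034 and Mettl21e (ENSMUSG00000046828.3, protein coding) from 44204070 to 44218961, both on the minus strand. Their starts are 199 kb apart. The sources used here give neither the build behind the deposited table nor the position of the amplicons. Of the genes in the table, 6 others start within 250 kb of either gene, namely Uxs1, Tpp2, Tex30, Kdelc1, Bivm and Ercc5. None of the 6 passed in limma (adjusted p from 0.389 to 0.989) and none had an unadjusted p under 0.05, a level that 16.1% of all genes tested reached. edgeR on the recovered reads called none of them either. Tpp2, a cytosolic peptidase gene that starts 86.4 kb from Mettl21c, averaged 59.4 ± 8.39 RPM in KO against 49.5 ± 6.34 RPM in WT (log2 difference 0.13, SE 0.14). Ercc5, a DNA repair nuclease gene 71.2 kb from Mettl21e, averaged 14.7 ± 1.15 RPM in KO against 13.1 ± 0.509 RPM in WT (0.03, SE 0.15).

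Smyd2 was the most abundant in reads of the 8, but 1 amplicon per gene does not allow levels of different genes to be ranked. Its levels were 801, 1422, 1585 and 2031 RPM in WT 1 to WT 4 and 929, 768, 1109 and 1053 RPM in KO 1 to KO 4. WT 1 lay within the KO range, and the other 3 WT libraries lay above every KO library. The mean was 965 ± 151 RPM in KO and 1460 ± 509 RPM in WT, and the log2 difference was -0.66 (SE 0.22).

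Without WT 1 and KO 4, Smyd2 averaged 935 ± 171 RPM in KO against 1679 ± 315 RPM in WT (n = 3 each), with a log2 difference of -0.97 (SE 0.16). KO 4 was not low for Smyd2 within its group, so the 2 libraries with Xist did not deviate in the same direction, unlike for Mettl21c.

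Smyd1, a methyltransferase of heart and skeletal muscle needed for myofibril assembly, held 246, 221, 255 and 270.3 RPM in WT 1 to WT 4 and 203, 169, 204 and 272 RPM in KO 1 to KO 4. The library KO 4 was the highest of all, and the other 3 KO libraries lay below every WT library. The log2 difference was -0.37 (SE 0.15), and -0.50 (SE 0.14) without the libraries with Xist. The annotated span of Smyd1 overlaps Krcc1 and 3 other genes on the other strand, and the sources used here do not say if reads were assigned by strand. Mettl21e, Smyd2 and Setd7 each overlap 1 gene on the other strand (Gm15833, Gm37422 and 5031434O11Rik). On the same strand Mettl21c overlaps Gm15838, Smyd2 overlaps Gm38245 and Setd7 overlaps Gm38200, none of which has a row in the table. Strand cannot separate reads of such pairs, and whether an amplicon lies in a shared stretch was not tested.

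Start regions of the SMYD pair are shown because these members both lay below the median gene while their promoters differ in composition. Both are RefSeq windows on GRCm38.p6, the last 100 bases before the start on the minus strand, chr6:71262282-71262381 for Smyd1 and chr1:189922292-189922391 for Smyd2, printed 5′ to 3′. On GENCODE M21 Smyd1 starts at 71322233 and Smyd2 at 189922363. The Smyd1 window thus lies inside its GENCODE span and the Smyd2 window partly so, as the 2 annotations place the starts differently. Capitals mark the letters TATAAA read on either strand.
Smyd1: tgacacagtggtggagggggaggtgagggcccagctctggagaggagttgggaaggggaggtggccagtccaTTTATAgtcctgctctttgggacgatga
Smyd2: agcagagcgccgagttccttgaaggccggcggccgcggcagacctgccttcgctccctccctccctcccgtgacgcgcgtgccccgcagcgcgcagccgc
In the 250 bases before the start, Smyd1 has 2 CG pairs and Smyd2 has 34, against a median of 6 over 32851 promoter windows of that length. A TATAAA match on either strand occurs in 12.4% of these windows and was found in Smyd1 alone among the 6 members with a RefSeq window (Mettl21a, Vcpkmt, Smyd1, Smyd2, Setd3 and Setd7). The CCAAT letters, on either strand, occur in 33.8% of windows, 3 times in each window of Setd3 and once in Smyd1. The MEF2 motif (2.92% of windows) and the core of the hypoxia response element, ACGTG (16.6%), had no match in these 6 members. CAGCTG, an E-box that reads the same on both strands, occurs in 13% of windows and was found in Mettl21a, Setd7 and Vcpkmt.

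Setd3 and Setd7 varied little. Setd3, which encodes the actin histidine methyltransferase, held 254, 327, 299 and 313 RPM in WT 1 to WT 4 and 310.0, 357, 356 and 349 RPM in KO 1 to KO 4. The groups overlapped through KO 1, and the log2 difference was 0.08 (SE 0.12). Setd7 ranged from 471 to 608 RPM in WT and from 507 to 646 RPM in KO, with a log2 difference of -0.004 (SE 0.13). In the 6 libraries without Xist the differences were -0.002 (SE 0.13) for Setd3 and 0.003 (SE 0.14) for Setd7. On the deposited scale both lay above 0 (0.20 and 0.12), and after TMM scaling they lay at 0.07 and -0.01, so the sign for Setd7 depends on the scaling, and that for Setd3 turned in the 6 libraries. The coefficients of variation were 10.5% in WT and 6.5% in KO for Setd3, and 13.1% and 9.87% for Setd7.

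**Figure D2:**
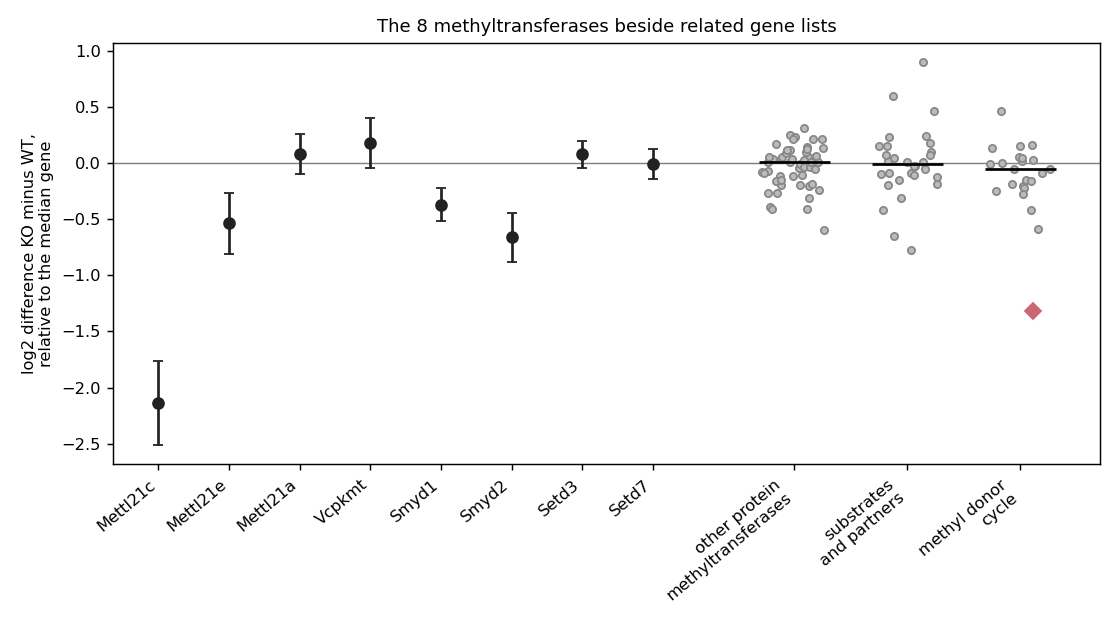
Log2 difference KO minus WT relative to the median gene (vertical axis) for the 8 methyltransferases with their SE, and for each tested gene of 3 related lists as a point, with the list median as a bar and a diamond for a gene with limma adjusted p under 0.05. Mettl21c lies at -2.14, below every gene of the lists, and As3mt is the 1 diamond, at -1.32.

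Other protein methyltransferases were described as a list of 60 enzymes, 58 of them in the table and 53 tested. None passed in limma, edgeR or DESeq2. At an unadjusted limma p under 0.05, 4 were higher and 0 lower, or 7.5%, against 16.1% of all genes. That split depended on the scaling. In edgeR with TMM factors those 4 had unadjusted p-values from 0.0702 to 0.122. Mettl11b, Kmt2d and Fam173a, all lower in KO, had edgeR p-values of 0.016, 0.022 and 0.023. The median log2 difference of the list was 0.01, with a range from -0.59 to 0.31, so that none lay as low as Smyd2 or Mettl21c. The smallest limma p-values belonged to Kmt2a and Dot1l. Kmt2a, a histone methyltransferase of active genes, averaged 35.8 ± 2.31 RPM in KO against 27.6 ± 1.51 RPM in WT (limma adjusted p = 0.197). Dot1l, which methylates the core of histone H3, stood at 39.4 ± 3.25 and 31 ± 3.44 RPM (adjusted p = 0.246). Ehmt1 (adjusted p = 0.246) and Mettl10, a methyltransferase of the elongation factor eEF1A (adjusted p = 0.294), followed.

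Of the relatives nearest to the members, Mettl21b was below the floor in all 8 libraries, at most 0.282 RPM. Smyd3 averaged 28.7 ± 1.16 RPM in KO against 25.9 ± 1.44 RPM in WT (limma adjusted p = 0.617), and Smyd5 at 15.4 ± 3.64 and 13.3 ± 2.33 RPM (adjusted p = 0.650). Smyd4 lay between 0.486 and 1.47 RPM and was too low to test. The 9 arginine methyltransferases tested held 0 genes with an unadjusted p under 0.05, and 8 of them lay below the median gene (median log2 difference -0.10).

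The substrates and partners of these enzymes formed a second list, 30 of whose 36 genes were tested; Vcp and Hspa8, Hsp90aa1 and Actg1 are not analysed here. None passed in limma or edgeR and 1, Hspa1b, in DESeq2, for which no share of all genes is given here. At an unadjusted limma p under 0.05, 5 were higher and 2 lower, or 23.3%, against 16.1% of all genes. Of the 2 lower, Hspa2 met the minimum level through its WT libraries alone, so its place in this count supports nothing. The list's median log2 difference was -0.005. Hspa1b, an inducible Hsp70, had 3.61, 1.89, 3.39 and 3.85 RPM in KO 1 to KO 4 and 1.55, 1, 1.14 and 0.486 RPM in WT 1 to WT 4. The groups did not overlap (log2 difference 0.90, limma adjusted p = 0.0512). Counts were low, at 3 to 11 reads per library in WT and 9 to 28 in KO, and WT 4 lay at the floor of 3 reads. Hspa1a is nearly identical in sequence and was too low to test, and the sources used here do not say how reads were split between both copies.

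Among the other Hsp70 genes, Hspa5, the chaperone of the endoplasmic reticulum, averaged 185 ± 38.5 RPM in KO against 123 ± 32.7 RPM in WT (limma adjusted p = 0.142). The mitochondrial Hspa9 stood at 620 ± 69.9 and 482 ± 48.7 RPM (adjusted p = 0.193), and Hspa2 at 0.699 ± 0.271 and 1.64 ± 0.261 RPM (adjusted p = 0.163). Hspa2 was near the floor, with 2 to 6 reads per KO library, and every KO library lay below 1 RPM. Of the 11 VCP cofactors tested, Plaa alone, higher in KO, had an unadjusted limma p under 0.05 (adjusted p = 0.283). In edgeR with TMM factors the unadjusted p was 0.092 for Plaa and 0.020 for Faf1, which was lower in KO. The actin genes, substrates of SETD3, stood in opposite order between the groups: Acta1, the actin of adult skeletal muscle, with 15663 ± 3207 RPM in KO against 22653 ± 5324 RPM in WT (adjusted p = 0.208), and Actc1, the cardiac form, at 284 ± 33.3 and 180.2 ± 75.2 RPM (adjusted p = 0.101). Unc45b, a myosin chaperone that works with SMYD1 in zebrafish, stood at 489.9 ± 63.6 and 603 ± 106 RPM (adjusted p = 0.351). The unadjusted edgeR p was 0.0079 for Unc45b and 0.0089 for Acta1, both lower in KO, and 0.026 for Actc1, which was higher. After adjustment none of these 3 passed in edgeR (adjusted p = 0.184, 0.195 and 0.289).

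In the 6 libraries without Xist, Hspa1b, Hspa5 and Actc1 were called higher (limma adjusted p = 0.0361, 0.0337 and 0.0012), where 3.63% of all genes were called. Hsp90ab1, a chaperone that SMYD2 methylates, averaged 1683 ± 187 RPM in KO against 1533 ± 231 RPM in WT (adjusted p = 0.650 over all libraries). Ttn, which encodes titin, stood at 4044 ± 661 and 3939 ± 430 RPM (adjusted p = 0.937).

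The methyl donor cycle makes S-adenosylmethionine and clears the products of methyl transfer. Its list here also held methyltransferases of small molecules. Of the 23 tested genes of the list, 1 fell and 0 rose in limma, where 0.803% of all genes were called and 0.28% on the lower side. The 1 that fell was among the 8 small-molecule methyltransferases. None of the 5 synthesis, 4 homocysteine and 6 salvage and carrier genes was called. Over the whole list 2 had an unadjusted limma p under 0.05, or 8.7%, against 16.1% of all genes. As3mt, the arsenite methyltransferase, fell from 29.3 ± 3.93 to 12.6 ± 3.76 RPM (log2 difference -1.32, SE 0.19, limma adjusted p = 0.00946), with 24.5 to 34.2 RPM in WT and 8.8 to 16.2 RPM in KO. It was also lower in the 6 libraries without Xist (-1.44, adjusted p = 0.00134). Mtap, which recycles methylthioadenosine from polyamine synthesis, held 65.1 to 89.4 RPM in KO and 41.7 to 60.9 RPM in WT, with no overlap (0.46, adjusted p = 0.0799). Pemt, the methyltransferase of phosphatidylethanolamine, did not pass (adjusted p = 0.401). Mat2a, which encodes the S-adenosylmethionine synthetase found outside the liver, averaged 145 ± 38.1 RPM in KO against 146 ± 26.8 RPM in WT (adjusted p = 0.95), with both groups spread over the same range.

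Variation between libraries within a group is separate from the KO against WT difference. For each library, the deviation of log2(RPM + 1) from its own group mean was taken. WT 1 deviated by -1.59 for Mettl21c, -0.79 for Smyd2 and 0.69 for Mettl21e, and by -0.22 to 0.18 for Mettl21a, Smyd1, Setd3 and Setd7. KO 4 deviated by -0.62 for Mettl21c, 0.65 for Mettl21e and 0.14 for Smyd2. Over the 8 libraries the deviations of Setd3 and Setd7 went with those of Mettl21c (Pearson r = 0.82 and 0.78, Spearman rho = 0.93 for both), as did those of Smyd2 (r = 0.71, rho = 0.40). Mettl21e had r = -0.74 (rho = -0.26).

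Without WT 1 and KO 4, the libraries farthest from the median deviation of Mettl21c, r was 0.96 for Setd3, 0.86 for Setd7, -0.10 for Smyd2 and 0.84 for Mettl21e. The relations of Smyd2 and Mettl21e to Mettl21c therefore rested on those libraries, and that of Mettl21e changed sign. These r values are descriptions over few libraries, which share depth and composition, and no p is attached to them.

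**Figure D3:**
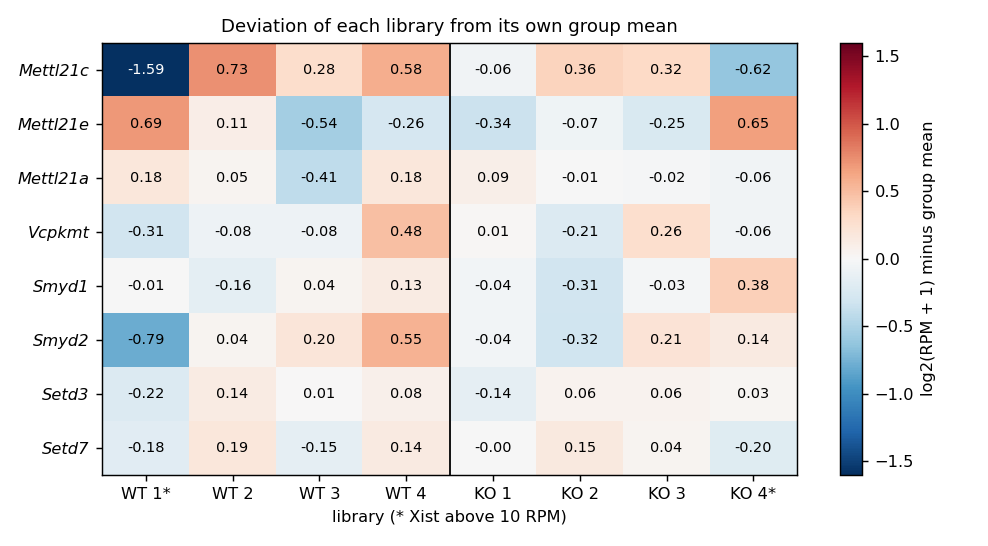
Deviation of log2(RPM + 1) from the mean of the library's own group (colour and printed value) for the 8 methyltransferases (rows) in WT 1 to KO 4 (columns), with asterisks for libraries with Xist above 10 RPM. WT 1 is at -1.59 for Mettl21c, -0.79 for Smyd2 and 0.69 for Mettl21e, and KO 4 is at -0.62 for Mettl21c and 0.65 for Mettl21e.

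By the same measure, the 5 genes most like Mettl21c among 8383 others with a mean of at least 5 RPM were Musk (r = 0.99), Nfya (0.99), Trim24 (0.99), Abhd6 (0.98) and Hipk2 (0.98). They were picked for that likeness, over 8 libraries. Musk, the receptor kinase of the neuromuscular junction, held 3.67, 19.2, 14.3 and 16.2 RPM in WT 1 to WT 4 and 7.72, 11.1, 10.4 and 6.73 RPM in KO 1 to KO 4. Like Mettl21c it was lowest in the library with Xist in each group, and without WT 1 and KO 4 r was 0.98. Without them r fell to 0.82 for Nfya (rho = 0.60), 0.71 for Trim24 (rho = 0.60), 0.84 for Abhd6 (rho = 0.94) and 0.89 for Hipk2 (rho = 0.49), so their likeness rested in part on those libraries. The groups of Musk overlapped, and it was not called (log2 difference -0.48, limma adjusted p = 0.630, and -0.84, adjusted p = 0.0541, in the 6 libraries).

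Markers of other cell types and states were read in the same libraries. Slow fibre genes, 7 in the table, summed to 189 to 350 RPM in WT and 189 to 366 RPM in KO, with none called. Myl3 and Myl2 dominated these sums and stood at 84% and 56.4% of WT. The other 5 (Tnnc1, Atp2a2, Tnni1, Csrp3 and Tnnt1), taken apart after their values were seen, stood 1.48-fold to 2.65-fold above WT, and their sums did not overlap, at 69.3 to 97.3 RPM in WT and 114 to 170.4 RPM in KO. As these 5 were taken apart with their values known, the gap between their sums follows from that choice and supports nothing. Over the whole list of 7, these 5 had an unadjusted limma p under 0.05, where 16.1% of all genes did. Their limma adjusted p-values ran from 0.0745 to 0.246. In the 6 libraries without Xist, Tnnc1 and Atp2a2 were called higher (adjusted p = 0.0254 and 0.0134). Endothelial markers (5 genes) summed to 264 to 409 RPM in WT and 406 to 582 RPM in KO, satellite cell markers (3) to 38.1 to 46.5 and 39.4 to 45.4 RPM, and fibroblast markers (4) to 904 to 1126 and 766 to 1329 RPM, and none of these was called. Of the endothelial genes 4 were higher at an unadjusted limma p under 0.05, among them Tek, whose edgeR p was 0.112. Cdh5 was called higher in the 6 libraries (limma adjusted p = 0.0253). The macrophage list (3 genes) summed to 7.56 to 13.5 RPM in WT and 14.3 to 18.6 RPM in KO, and Cd68 rose (limma adjusted p = 0.0192). Adgre1 and Csf1r, the rest of that list, stood at 103% and 104% of WT, with overlapping groups (limma adjusted p = 0.963 and 0.922). The gap between the sums thus came from Cd68. In the tendon list (4 genes, 96.8 to 171 RPM in WT and 51.5 to 140.1 RPM in KO) Scx fell (adjusted p = 0.0164). Schwann cell markers (3) summed to 15.4 to 23.3 and 15 to 20.6 RPM, and adipocyte markers (3) stayed at or below 3.71 RPM in sum.

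Of 8 tested genes that denervated muscle induces, 1 rose, Gadd45a, from 60.9 ± 17.8 to 182 ± 32.2 RPM (limma adjusted p = 3.56e-04). The sum of the list was 80.8 to 130.3 RPM in WT and 191 to 255 RPM in KO, and this gap came from Gadd45a: without it the other 8 genes in the table summed to 35.2 to 45.7 RPM in WT and 34.8 to 49.2 RPM in KO, which overlap. Myog and Chrna1 did not pass (limma adjusted p = 0.364 and 0.880). Myog was highest in WT 1 (14.1 RPM), while WT 2 to WT 4 held 2 to 3.72 RPM and KO 5.75 to 9.34 RPM, and in the 6 libraries without Xist it was called higher (log2 difference 0.99, adjusted p = 0.0154). Cd68, Scx and Gadd45a were called there too (adjusted p = 0.0192, 0.00284 and 3.91e-07). None of the marker lists had every gene at 0, and no single marker in the table was at 0 in all 8 libraries. The part of these cells and states in the levels of the methyltransferases was not tested. In whole muscle, fewer cells of a type and less RNA per cell cannot be told apart.

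**Figure D4:**
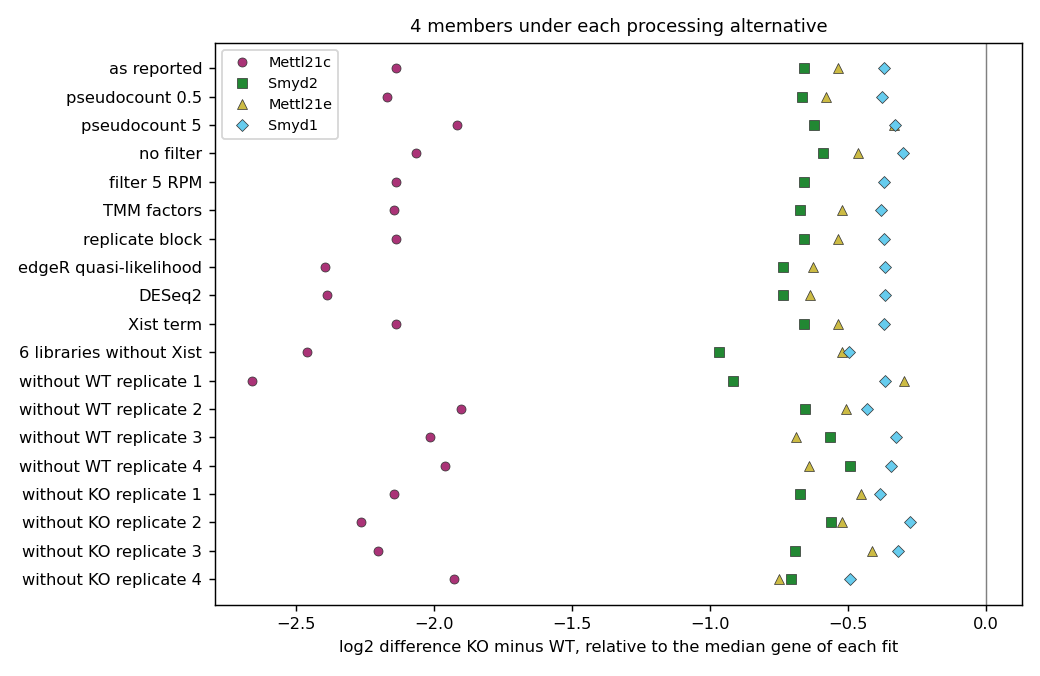
Log2 difference KO minus WT relative to the median gene of each fit (horizontal axis) for Mettl21c, Smyd2, Mettl21e and Smyd1 as reported and under each of 18 processing alternatives (rows), where Mettl21e has no point with the minimum of 5 RPM. All points lie below 0, with Mettl21c between -2.66 and -1.90 and Smyd2 between -0.97 and -0.49 under the alternatives.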

How the data were processed

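RNA of 4 WT and 4 KO libraries was grouped by sample title. The authors deposited 1 table of RPM, reads per 1000000 reads, for 23930 genes with 1 amplicon each. Per the submitters' processing notes the Transcriptome Analysis Console was used, and the sources used here do not give the aligner, build, filters or use of strand. Every RPM value was a whole multiple of 1 read (100% within 0.05 reads), which gave whole reads and totals. Replicates differed by more than counting error in every pair (chi-square per degree of freedom 8.02 or more), and all 8 libraries were kept. Scaling to a fixed total lets abundant transcripts set the level of the rest, and between 29.5% and 41.7% of each library went to its top 50 genes.

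The fit covered all genes that reached 1 RPM in 4 or more libraries. It used limma 3.58.1 (R 4.3.3) on log2(RPM + 1), with a genotype term and empirical Bayes with a trend. Tests were two-sided, and genes were called at an adjusted p below 0.05 (Benjamini-Hochberg). The limma tests were not centred on the median gene. The added 1 RPM makes differences of low genes appear smaller. Alternatives were pseudocounts of 0.5 and 5, no filter, a minimum of 5 RPM, TMM factors, the replicate number as a block, edgeR 4.0.16 and DESeq2 1.42.0 on recovered reads, a term for Xist above 10 RPM, the 6 libraries without Xist, and omission of each library. The fits were tested on simulated data. Figures were drawn with matplotlib 3.10.9.

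The 8 genes, the lists and the alternatives were chosen with earlier results of these data known. Named are all 8 genes, called genes of each list and up to 4 with the smallest p, tested genes within 250 kb of Mettl21c or Mettl21e, and the 5 genes most like Mettl21c. Other relatives, substrates and markers that are named were added after their values were seen. The result of 1 list gene that this rule names is not reported here.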

Additional observations from a re-analysis of the deposited data

How the results depend on the processing

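The log2 difference of Mettl21c stayed negative in all 18 alternatives and moved by less than the spread between replicates, from -2.66 to -1.90 with 1 library left out (-2.66 without WT 1) and from -2.46 to -1.92 in the others. Smyd2 and Smyd1 stayed negative in all 18, and Mettl21e in the 17 that included it. Mettl21e and Vcpkmt had no value with a minimum of 5 RPM. Mettl21a turned to -0.03 and Setd3 to -0.002 in 1 alternative each, and Setd7 was negative in 11 of 18. The median over the 8 genes ran from -0.25 to -0.12.

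No other protein methyltransferase was called in any alternative, and 1 gene of the methyl donor cycle list, As3mt, was called in each. In the list of substrates and partners, where 0 genes were called, 1 was called with a pseudocount of 5 and with DESeq2, 3 with the term for Xist and 3 in the 6 libraries without Xist. With 1 library left out the count ran from 0 to 3, with 3 without WT 1 and 1 without KO 2. Of all genes, 0.803% were called with all libraries and 3.63% in the 6 without Xist. For the pseudocount, DESeq2, Xist term and left-out fits that share is not given here. The changes in count are therefore not read as a result about this list.

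The labels do not say that equal replicate numbers mark paired animals. Deviations of same-numbered libraries had correlations between -0.12 and 0.08, and none of the WT libraries was most like the KO library of its own number. With the number as a block, 81 genes in the table were called in place of 89, Mettl21c stayed at -2.14 and the counts of the 3 lists (0, 0 and 1) were the same. Depth limited Vcpkmt (5 to 12 reads) and Mettl21e (18 to 69 reads) most.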
